A study of Nasonia vitripennis with 79 samples.

Results

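The odorant receptor genes of the parasitoid wasp Nasonia vitripennis were followed across sex, ploidy, generation and tissue. They were taken as every gene of the count table whose symbol is Or followed by a number, which gave 214 of 14621 genes, and all 214 symbols were found in the RefSeq gene table. Messenger RNA was sequenced from heads and abdomens of wasps of the WOM line 1 day after emergence. The line is a polyploid one made by knockdown of the sex determination gene wom, so every group described here carries that history. Female heads came from triploids and diploids of generation F14 and from triploids and diploids of generation F2. Male heads came from diploids and haploids of generation F15 and from diploids and haploids of generation F3, so the males of each period are 1 generation later than the females. Haploid males are the usual males of this haplodiploid wasp, and diploid males and triploid females are the polyploid forms. Each of the 8 head groups held 5 libraries. Abdomens came from the same groups except the F2 diploid females, whose abdomens are not analysed here, with 4 libraries of F14 triploid females and 5 of each other group. Libraries are named below as in their labels, which do not say whether the replicates are separate animals, pools or cultures, so p-values measure the spread between these samples, which may be technical.

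Insects detect volatile chemicals with odorant receptors in the membranes of olfactory neurons, which sit in hair-like sensilla on the antennae and mouthpart palps. A working receptor is an odorant-gated ion channel in which a tuning receptor, different from neuron to neuron, is joined to a coreceptor shared by most olfactory neurons, called Orco in Drosophila and Or1 in Nasonia. Hymenoptera have large families of tuning receptors, many of them lying side by side in the genome in tandem arrays. Which odorant opens each member described here is not assigned. Odorant-binding proteins, soluble carriers secreted into the fluid around the neurons, are the neighbouring step of the same pathway.

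The 74 libraries used held between 12.6 M and 95 M expected counts each. The eye opsin Lop1 ranged from 529 to 15700 TPM in heads and from 0 to 261 TPM in abdomens. The synaptic gene Syt1 ranged from 52 to 384 TPM in heads and started at 1.76 TPM in abdomens, but the highest abdomen library lay above the lowest head library, so its ranges overlapped. The germ plasm gene oskar reached 67.7 TPM in heads and 1060 TPM in abdomens, but it was high only in female abdomens. Its group means ran from 516 to 1040 TPM in female abdomens and from 1.65 to 4.87 TPM in male abdomens. In male heads they ran from 5.64 to 12.6 TPM. No 2 libraries of a group agreed within counting noise, as chi-square divided by its degrees of freedom was at least 7.25 in all 146 pairs. The muscle tropomyosin Tm1 differed widely between groups of female heads. Its mean was 411 CPM in F2 triploids and 3685 CPM in F2 diploids, and 3999 CPM in F14 triploids and 869 CPM in F14 diploids.

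No member was at 0 in every head library, but most levels were low. In TPM, an abundance corrected for transcript length and scaled to one total in every library, 71 members averaged at least 1 over the 40 head libraries and 192 averaged at least 0.1. The coreceptor Or1 led with a mean of 48.2 TPM. The next members were far lower, at 9.32 TPM for Or296, 7.96 TPM for Or243, 6.72 TPM for Or140, 6.46 TPM for Or275 and 5.28 TPM for Or92. Or217, Or163, Or146 and Or93 completed the 10 highest, with means of 4.17, 4.13, 3.55 and 3.07 TPM. The expected counts of 202 members were whole numbers throughout, and 8 members had more than 10% of their nonzero values not whole, as happens where reads are divided between loci, led by Or296 at 91.7% and Or261 at 90.5%. Results for those genes are therefore uncertain by an amount that cannot be read from the table.

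The level of the whole family differed widely between libraries of the same group. In heads of F14 triploid females, Or1 had 14.5, 3.58, 3.63, 69.5 and 46.6 TPM in D81, D82B, D83B, D84 and D85. In heads of F14 diploid females it had 199, 1.46, 0.84, 95 and 153 TPM in D91 to D95. The heads of F2 triploid females had 1.71, 1.22, 54.0, 121 and 128 TPM in D31 to D35. D92 and D93 among the F14 diploids and D31 and D32 among the F2 triploids thus lay far below the other libraries of their groups. The heads of F2 diploid females were the even group, with 104.8, 82.1, 132, 78.7 and 123 TPM in D21 to D25.

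Or1 varied as much in male heads. Heads of F15 diploid males had 3.40, 28.1, 51.6, 111.4 and 20.3 TPM in D111 to D115, and heads of F15 haploid males had 37.9, 1.88, 64.8, 2.66 and 44.2 TPM in D101 to D105. Heads of F3 diploid males had 59.0, 11.9, 5.06, 1.46 and 15.8 TPM in D11 to D15, and heads of F3 haploid males had 11.6, 1.46, 1.08, 31.6 and 7.47 TPM in D1, D1A, D3, D4 and D5. Each of these male groups held libraries with high and with low Or1, and their ranges overlapped with each other. Every F2 diploid female library lay above all F3 male libraries. The highest library over the lowest gave a ratio of 19.4 in F14 triploid females, 237 in F14 diploid females and 1.67 in F2 diploid females, and in F2 triploid females the range was 1.22 to 128 TPM. In males that ratio was 32.8 in F15 diploids, 34.5 in F15 haploids, 40.4 in F3 diploids and 29.2 in F3 haploids.

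**Figure D1:**
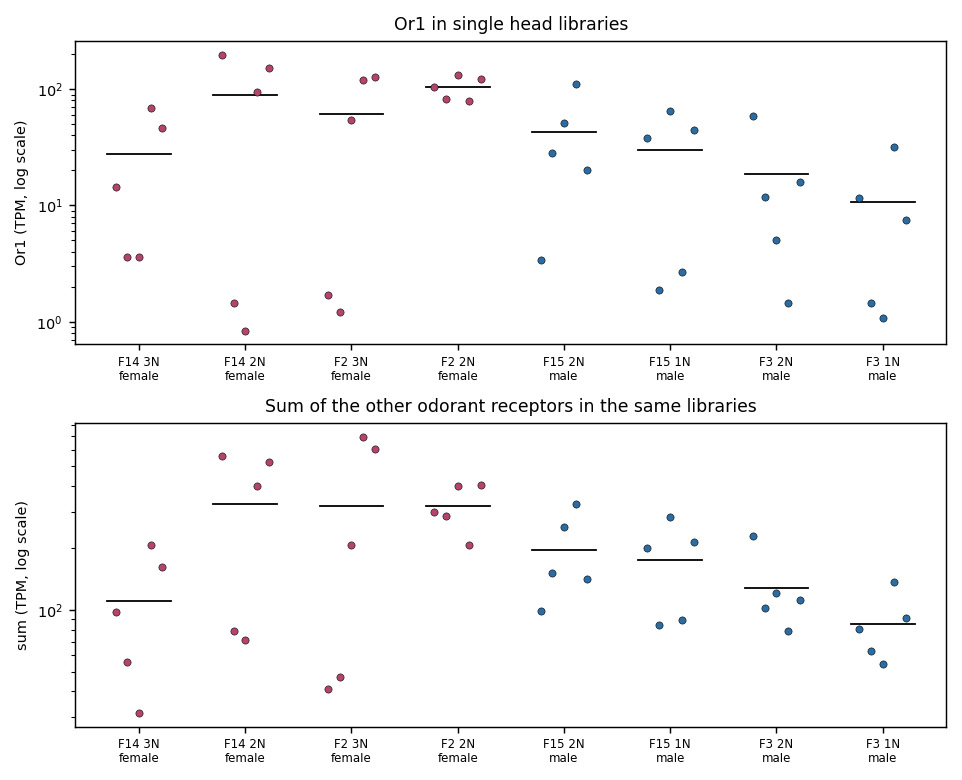
TPM of the coreceptor Or1 and of the summed other odorant receptors in each head library, by group, on a logarithmic axis. Each point is 1 library and each line a group mean; Or1 runs over a 237-fold range in heads of F14 diploid females and a 1.67-fold range in heads of F2 diploid females.

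In most head groups the summed other members moved with Or1. The library with the highest Or1 was also the library with the highest summed TPM of the other members in 6 of the 8 head groups, and the lowest library was the same for both in 6 of 8. Of the 70 other members that averaged at least 1 TPM, 48.6 to 64.3% were lowest in the library where Or1 was lowest, ties at 0 included, against 5.67 to 49.9% of all other genes at that level. A member at 0 in several libraries counts as lowest in each of them. The other genes share the cut of 1 TPM but were not matched to the members in level. The share of members lowest there is therefore no support for a shared movement. Between 28.6 and 60.0% of those members were highest where Or1 was highest, against 8.66 to 55.2% of the other genes. The F2 diploid females were the exception there, with 37.1% of members against 55.2% of genes. F2 triploid females lay near the other genes, with 28.6% of members highest there against 23.6% of genes. For the lowest library the F3 haploid males lay near them, with 52.9% of members against 49.9% of genes. Across groups the within-group standard deviation of log2(TPM + 0.1) had a median of 1.69 over the 71 members and 0.47 over the 10378 genes of at least 1 TPM, with a lowest of 0.67 and a highest of 2.71 among the members. Those genes were not matched to the members in level, and the part of low counts in the wider spread was not tested. Or163, Or243, Or217 and Or162 varied most.

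**Figure D2:**
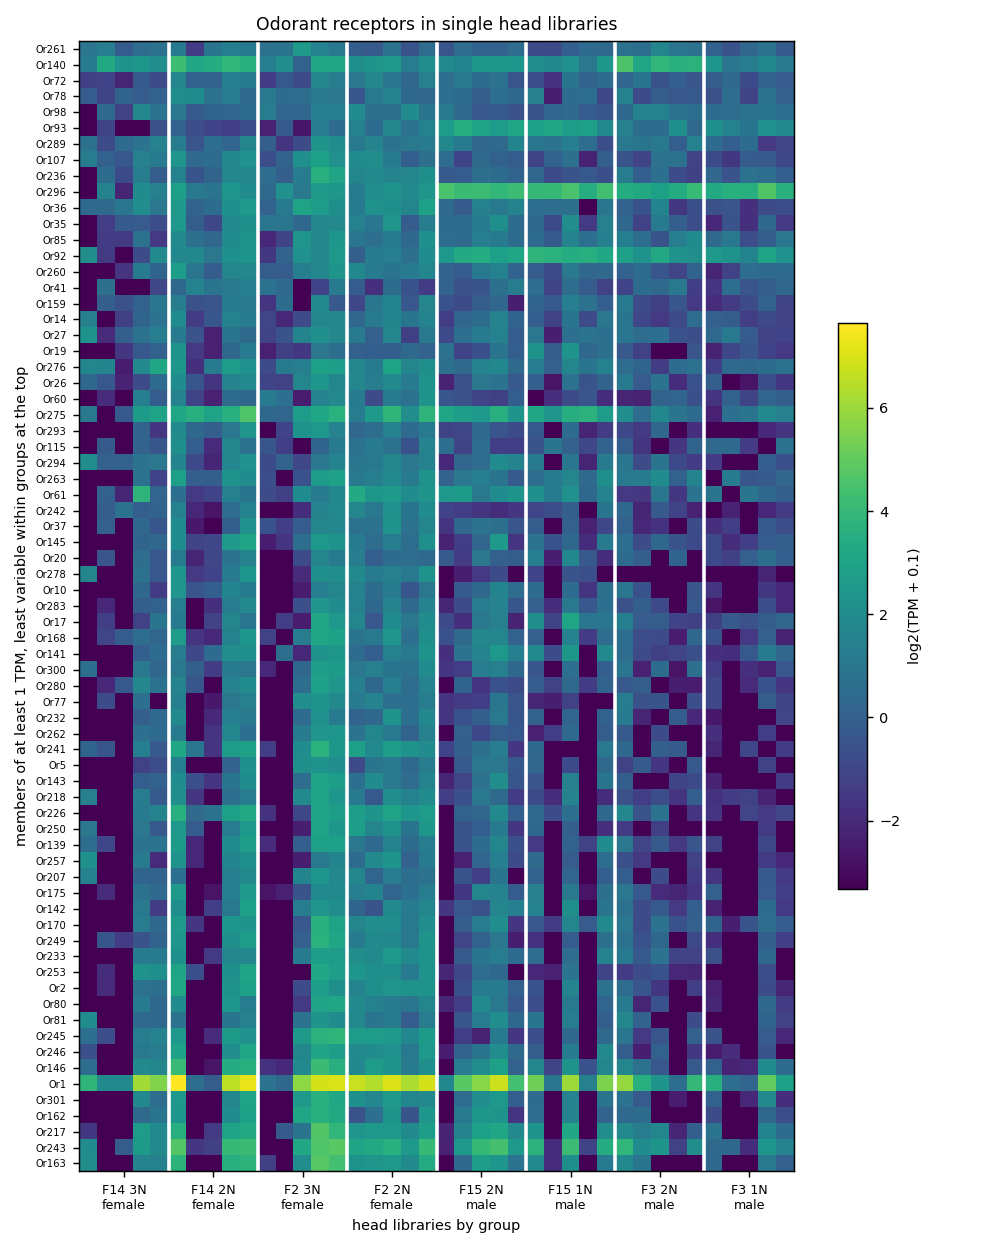
log2(TPM + 0.1) of the 71 odorant receptors that averaged at least 1 TPM over heads, in the 40 head libraries by group, with members ordered by their within-group standard deviation. Low values are dark, and most members are dark in the libraries where Or1 was low, such as D92 and D93, while the members of lowest standard deviation change least.

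The odorant-binding protein OBP77 ranged from 0 to 241 TPM in heads, with 0, 1.25, 35.8, 165 and 241 TPM in D31 to D35, the F2 triploid females. In the F14 diploid females it had 87.1, 2.74, 3.37, 67.3 and 123 TPM in D91 to D95, low in the libraries where Or1 was low. In the same order the F14 diploid females had 8943, 10910, 4103, 8491 and 5931 TPM of Lop1 and 384, 233, 285, 282 and 209 TPM of Syt1, so D92 and D93 were not the 2 lowest for either gene. In D31 to D35 Lop1 had 3579, 2473, 15670, 9129 and 11300 TPM, low where Or1 was low, while Syt1 had 269, 296, 60.5, 77.8 and 123 TPM and was high there. OBP19 was highest in D92 (9.25 TPM), D31 (15.5 TPM) and D82B (14.5 TPM), female libraries with low Or1. In F2 diploid females (D23), F15 diploid males (D114), F15 haploid males (D103) and F3 haploid males (D4) it was highest where Or1 was highest. In F3 diploid males it was highest in D15, and Or1 in D11. OBP67 stayed at or below 0.83 TPM in heads. The part of such markers in the differences between groups was not tested. Between sexes OBP19 was lower in early females (log2 fold change -1.40 ± 0.34 against diploid males, adjusted p = 0.0017, edgeR), and OBP77 differed by 2.10 ± 1.22 late and 2.62 ± 1.29 early without a call. In heads, fewer olfactory neurons and less receptor RNA per neuron cannot be told apart.

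The sum over the 214 members gave the same picture. It averaged 138 ± 102.3 TPM in heads of F14 triploid females, 418 ± 326 TPM in F14 diploid females, 381 ± 373 TPM in F2 triploid females and 425 ± 107.2 TPM in F2 diploid females (SD, n = 5 each). In male heads it averaged 238 ± 135 TPM in F15 diploids, 205 ± 113.6 TPM in F15 haploids, 147 ± 80.5 TPM in F3 diploids and 95.8 ± 44.7 TPM in F3 haploids (SD, n = 5 each). Placed in order of their means, neighbouring groups differed by less than the larger of their standard deviations. Of the 71 members at or above 1 TPM, 63 had their highest group mean in a female group and 8 in a male group. These members passed a cut on the mean over the same libraries, and the share over all genes was not counted. The split therefore describes these members and is no support for a sex difference of the family.

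Female and male heads were compared in diploid females against diploid and against haploid males. The call was an adjusted p under 0.05 by edgeR's quasi-likelihood test across all genes that passed a count filter, and 152 of the 214 members passed it in heads. In fits of 1 sex alone, 141 passed in female heads and 67 in male heads, so many of the 152 entered through the female libraries where they are high. The counts by direction and the medians below describe the members that passed and are no support for a difference between the sexes in the family. In late diploid females against late diploid males 5 members were higher and 2 lower, where 9.08% of all genes were called, 3.09% higher and 5.98% lower. In early diploid females against early diploid males 27 were higher and 2 lower, where 37.1% of all genes were called, 16.7% higher and 20.4% lower. The share of members called, 4.61% late and 19.1% early, was thus below that of all genes in both comparisons. Their median log2 fold change was 0.90 late and 1.97 early, while that of all genes was 0.03 and -0.02.

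Against haploid males, 9 members were higher and 3 lower in late diploid females, where 9.73% of all genes were called, 3.44% higher and 6.30% lower, and 61 were higher and 1 lower in early diploid females, where 24.5% of all genes were called, 13% higher and 11.5% lower. The share of members called was 7.89% late and 40.8% early. The medians over the tested members were 1.29 and 2.85, against 0.06 and -0.02 over all genes. The 4 comparisons share the female libraries, so they are not independent of each other. With library sizes set to the sum of the receptors' own counts, the early comparison with diploid males gave 9 higher and 11 lower and that with haploid males 11 higher and 13 lower, and the late ones gave 0 higher and 0 lower with diploid males and 0 higher and 1 lower with haploid males. On that scale the median of all genes shifted to -2.16, -2.85, 0.45 and 0.20, in the same order.

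Single libraries moved these counts. In the late comparison with diploid males the 7 calls became 2 without D91 or D112, 3 without D94 or D115 and 4 without D111, D113 or D114. In the late comparison with haploid males the 12 calls became 3 without D91, 4 without D101, D102 or D104, 6 without D94 or D103, and 7 without D95 or D105. In the early comparisons the 29 calls with diploid males became 18 without D14 and 19 without D23, and the 62 with haploid males became 35 without D1A, 37 without D3 and 41 without D1.

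**Figure D3:**
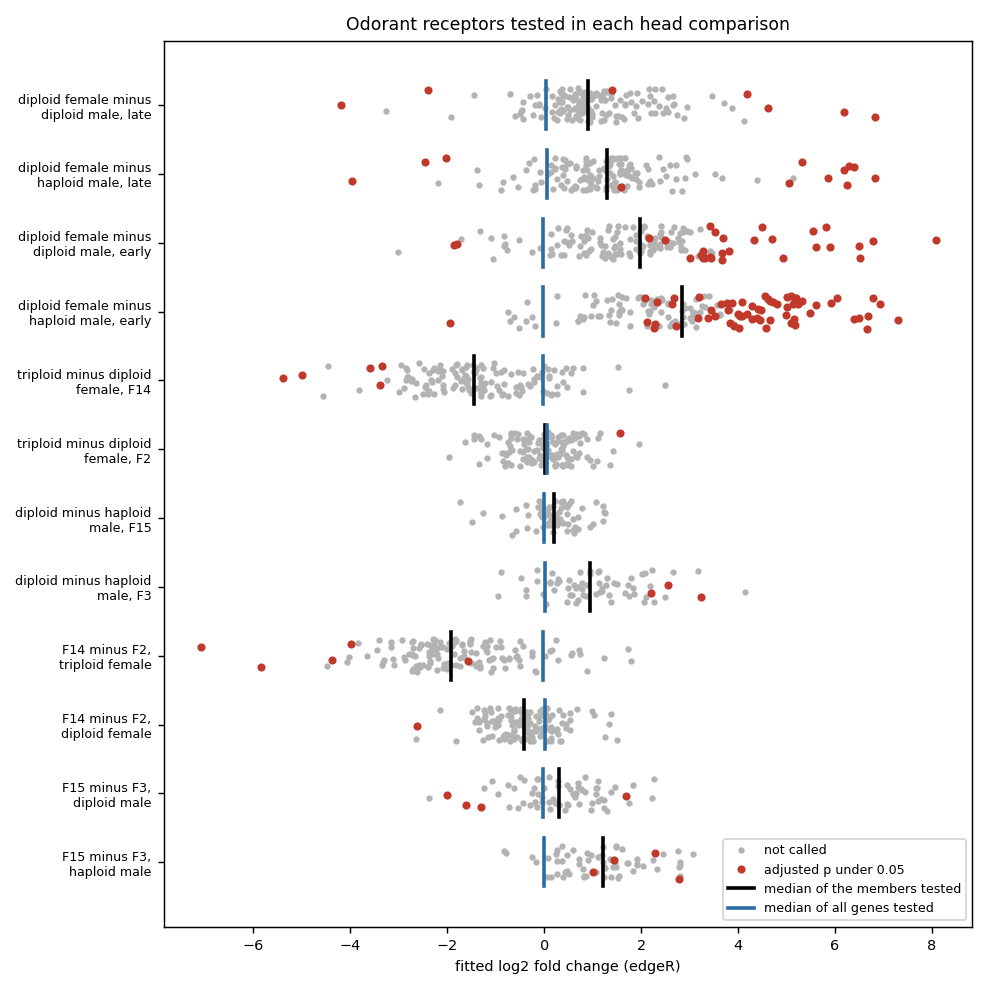
Fitted log2 fold change of each tested odorant receptor in each head comparison, with calls at an adjusted p under 0.05 in red, the members' median as a black bar and the median of all genes as a blue bar. The members' medians lie above those of all genes in the 4 sex comparisons, from 0.90 to 2.85.

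The coreceptor followed this direction less firmly than some tuning receptors. Or1 averaged 89.8 ± 88.9 TPM in F14 diploid females and 43.0 ± 42.0 TPM in F15 diploid males, a log2 fold change of 0.96 ± 1.18 (SE; adjusted p = 0.730, edgeR). In the early generations it averaged 104.1 ± 23.8 TPM in F2 diploid females and 18.6 ± 23.2 TPM in F3 diploid males, a log2 fold change of 2.65 ± 1.25 (adjusted p = 0.0907, edgeR), and all 5 female libraries lay above all 5 male libraries. Against F3 haploid males, at 10.6 ± 12.5 TPM, the log2 fold change was 3.53 ± 1.3 (adjusted p = 0.043, edgeR), a call lost without any 1 of 9 of the 10 libraries, all except D4, with adjusted p up to 0.0963.

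Some tuning receptors were at or near 0 in male heads of a group, and such members passed the filter through the libraries where they are high. Or278 averaged 1.63 CPM in F2 diploid females and 0 in F3 diploid males, at least 43-fold higher when the male total is taken as 3 counts over the group. Against F3 haploid males, at 0.01 CPM, the log2 fold change was 6.66 ± 1.60 (adjusted p = 0.0026, edgeR). Or250 averaged 2.21 CPM in F2 diploid females and 0.08 CPM in F3 diploid males (log2 fold change 4.70 ± 1.46, adjusted p = 0.0115, edgeR). Or191 and Or201 were at 0 in late diploid males, against 0.69 and 0.45 CPM in late diploid females, at least 22.8- and 14.6-fold higher on the same floor. Their female ranges reached down to 0, so groups overlapped there. Or279 averaged 0.48 CPM in late diploid females and 0.01 CPM in late diploid males, and 0.90 CPM in early diploid females and 0.01 CPM in early diploid males.

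A few members went the other way. Or296 was the clearest, with 7.22, 2.08, 1.78, 5.28 and 3.81 TPM in heads of F14 diploid females, against 23.1, 17.8, 18.4, 15.3 and 18.1 TPM in F15 diploid males and 15.5, 16.2, 22.4, 11.1 and 19.9 TPM in F15 haploid males. In the early generations it had 2.17, 4.0, 4.71, 3.70 and 5.08 TPM in F2 diploid females, against 10.9, 9.94, 7.42, 10.6 and 16.7 TPM in F3 diploid males and 10.2, 12.1, 11.5, 24.9 and 12.4 TPM in F3 haploid males. Male and female libraries did not overlap in any of these comparisons. Against diploid males the log2 fold change was -2.39 ± 0.50 late (adjusted p = 0.0012) and -1.80 ± 0.49 early (adjusted p = 0.0048), and against haploid males it was -2.47 ± 0.51 late (adjusted p = 0.000785) and -1.95 ± 0.50 early (adjusted p = 0.0039, all edgeR). Leaving out any 1 library kept these calls. Most nonzero values of Or296 are not whole, as given above, so its level remains uncertain. Scaled to the receptors' own sum, the direction stayed in all 4 comparisons and the 2 late calls were lost, and limma on log2(TPM + 0.1) lost the early call against diploid males. A gene that overlaps Or296, LOC100115687, was called in none of the 4 comparisons. It had 6.80 ± 2.33 TPM in F14 diploid females and 4.23 ± 0.81 TPM in F15 diploid males (log2 fold change 0.57, adjusted p = 0.389, edgeR), and 3.65 ± 0.86 TPM in F2 diploid females and 6.18 ± 2.7 TPM in F3 diploid males (-0.56, adjusted p = 0.209, edgeR). Against haploid males its log2 fold changes were 0.62 late and 0.06 early. The library kit named in the labels does not mark strand, so reads of overlapping genes cannot be told apart. By reference span, 91 members overlap another gene, among them Or140, Or230, Or98 and Or275. Overlapping genes were compared only for Or296, Or92, Or261 and Or179.

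Or93 was lower in females in the late generations, and the difference between periods was itself tested. It had 0.95, 0.51, 0.36, 0.31 and 0.50 TPM in F14 diploid females, against 6.62, 11.4, 8.15, 6.47 and 8.78 TPM in F15 diploid males, a log2 fold change of -4.20 ± 0.65 (adjusted p = 1.4e-05, edgeR). In the early generations it had 2.68, 1.33, 3.06, 1.62 and 2.68 TPM in F2 diploid females, against 2.67, 1.38, 1.38, 4.32 and 1.29 TPM in F3 diploid males, and those groups overlapped. The difference of the log2 fold changes, late minus early, was -4.33 ± 0.85 (adjusted p = 0.00041, edgeR), and it was -1.90 and no longer called when scaled to the receptors' own sum, where the late call against diploid males was lost too. Against F15 haploid males, at 6.72 ± 1.96 TPM, the late log2 fold change was -3.97 ± 0.65 (adjusted p = 3.1e-05, edgeR).

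Or140 reversed between periods. In the late generations it had 18.7, 9.19, 11, 15.1 and 11.8 TPM in F14 diploid females, against 3.62, 3.02, 5.46, 5.54 and 5.37 TPM in F15 diploid males. In the early generations it had 4.33, 4.99, 5.57, 2.38 and 4.14 TPM in F2 diploid females, against 23.5, 8.75, 15.2, 12.3 and 12.9 TPM in F3 diploid males. The groups did not overlap in either period, with females high in one and males high in the other. The log2 fold changes were 1.40 ± 0.42 (adjusted p = 0.027) and -1.87 ± 0.42 (adjusted p = 0.0008), and their difference was 3.26 ± 0.59 (adjusted p = 0.00018, all edgeR). The late call was lost without D91, D94, D111 or D112, with adjusted p up to 0.0829, and under scaling to the receptors' own sum, where the difference between periods was 5.41 and still called. Or61 was the other member whose sex difference changed between periods, by -4.40 ± 1.39 (adjusted p = 0.019, edgeR), where 24.9% of all genes were called, 13.4% higher and 11.5% lower. Scaled to the receptors' own sum, Or61 was at -3.71 and no longer called, and 3 members were called higher and 0 lower for this difference, in place of 1 higher and 2 lower. Ndufa7 and other genes overlap Or140, and their part in its values was not tested.

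**Figure D4:**
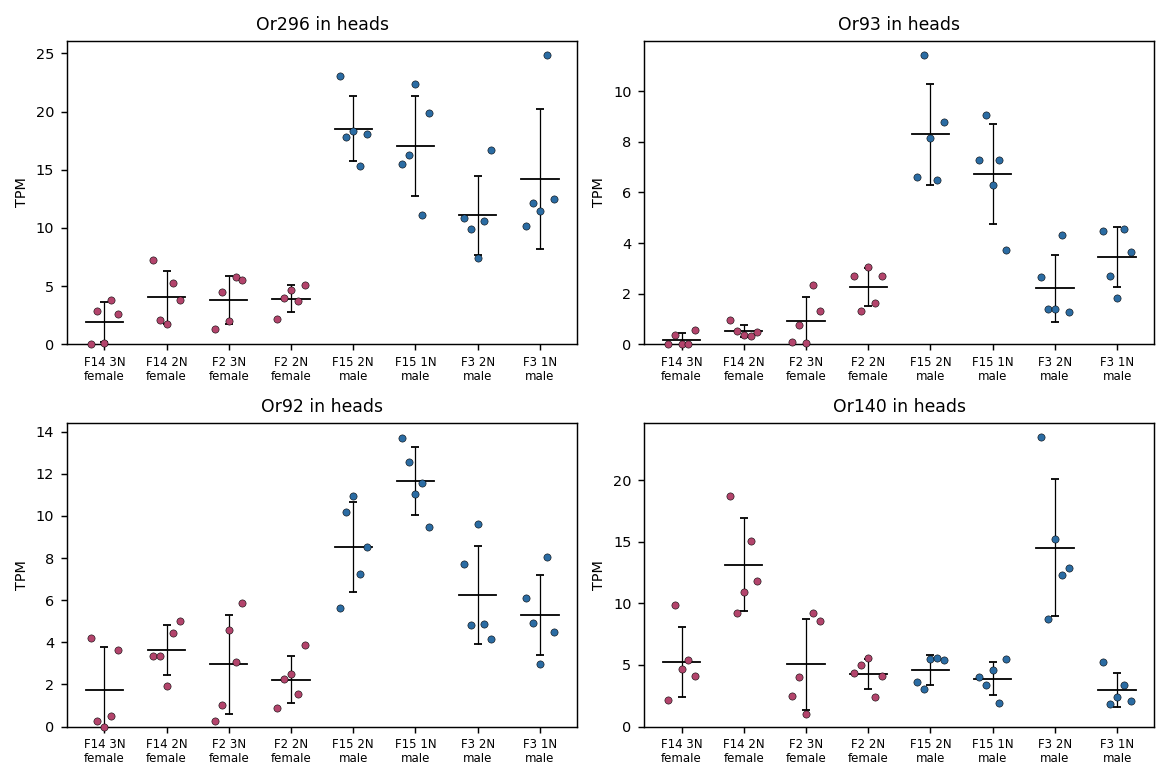
TPM of Or296, Or93, Or92 and Or140 in each head library by group, with the mean and standard deviation. Or296 lies higher in every male library than in every diploid female library, and Or140 stands out in heads of F14 diploid females and F3 diploid males.

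Or92 was lower in late diploid females than in late haploid males. It had 3.34, 3.37, 1.91, 4.45 and 5.01 TPM in F14 diploid females, against 13.7, 12.6, 11.1, 11.6 and 9.45 TPM in F15 haploid males, with no overlap. The log2 fold change was -2.02 ± 0.63 (adjusted p = 0.035, edgeR), a call lost without any 1 of 7 libraries, D91 to D94, D101, D102 and D104, and also lost when scaled to the receptors' own sum. Against F15 diploid males, at 8.51 ± 2.15 TPM, the libraries did not overlap either, but the log2 fold change of -1.45 ± 0.62 was not called (adjusted p = 0.158, edgeR). LOC100121454, which overlaps Or92, was also lower in females there (log2 fold change -2.03 ± 0.61, adjusted p = 0.029, edgeR), so the 2 genes cannot be told apart on this point.

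The count of odorant receptors called between triploid and diploid female heads depended on the tool. Of the 141 members tested in female heads, 1 was higher and 0 lower in F2 triploids, where 42.4% of all genes were called, 21.7% higher and 20.7% lower, and 0 were higher and 5 lower in F14 triploids, where 29.7% were called, 16% higher and 13.7% lower. In F14 DESeq2 called 14, limma called 23 on log2(TPM + 0.1) and 20 on log2(TPM + 1), and a fit of only these 2 groups called 2. The members' medians were 0.01 and -1.45, against 0.05 and -0.03 for all genes. Or1 averaged 61.3 ± 61.8 TPM in F2 triploids and 104.1 ± 23.8 TPM in F2 diploids, and 27.6 ± 29.3 TPM in F14 triploids and 89.8 ± 88.9 TPM in F14 diploids. Neither difference passed (log2 fold change -0.67 ± 1.2, adjusted p = 0.683, and -1.24 ± 1.22, adjusted p = 0.473, edgeR). The F2 call was lost without D22, D24 or D33, and the F14 count of 5 became 3 without D83B or D91 and 13 without D84. Scaled to the receptors' own sum, 4 members were higher and 0 lower in F2 and 0 were called in F14. The muscle gene Tm1 moved in both comparisons, with 411 CPM in F2 triploids and 3685 CPM in F2 diploids, and 3999 CPM in F14 triploids and 869 CPM in F14 diploids, and its part in the results was not tested.

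The member called in F2 was Or261, at 4.78 CPM in triploids and 1.57 CPM in diploids (log2 fold change 1.57 ± 0.54, adjusted p = 0.024, edgeR), with no overlap. The gene LOC100679854 that overlaps it also rose, to 72.0 ± 33.4 TPM in triploids, against 37 ± 3.32 TPM in diploids (log2 fold change 0.88 ± 0.20, adjusted p = 0.0017, edgeR). The 5 members lower in F14 triploids, which fall outside the naming rule and were picked after their values were seen, were Or117, Or230, Or166, Or285 and Or219. Or230, for example, had 0.07 CPM in triploids and 0.88 CPM in diploids (log2 fold change -3.38 ± 0.95, adjusted p = 0.0114, edgeR), and its libraries did not overlap. Or166 was the only member called for a change of the ploidy difference between generations in female heads (adjusted p = 0.030, edgeR). It was at 0 in every F14 triploid library, against 0.26 CPM in F14 diploids, which were at least 6.02-fold higher, and had 0.85 CPM in F2 triploids, against 0.55 CPM in F2 diploids. In that comparison 24.3% of all genes were called, 12.9% higher and 11.4% lower. That count of 1 became 0 without D95, 2 without D32, D33, D82B or D93, 3 without D31 and 5 without D84. Among the odorant-binding proteins, OBP19 was higher in F2 triploids (log2 fold change 2.19 ± 0.39, adjusted p = 0.00019) and OBP77 lower in F14 triploids (-4.15 ± 1.5, adjusted p = 0.042, both edgeR).

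Diploid and haploid male heads differed in Or140 most firmly. In F3 it had 23.5, 8.75, 15.2, 12.3 and 12.9 TPM in diploids, against 5.26, 1.85, 2.37, 3.34 and 2.04 TPM in haploids, with no overlap and a log2 fold change of 2.54 ± 0.37 (adjusted p = 0.00028, edgeR). In F15 it had 4.60 ± 1.19 TPM in diploids and 3.88 ± 1.34 TPM in haploids, and the difference between generations was -2.37 ± 0.51 (adjusted p = 0.015, edgeR). The part of the genes that overlap Or140 was not tested here either. Of the 67 members tested in male heads, 3 were higher and 0 lower in F3 diploids, where 16.2% of all genes were called, 9.86% higher and 6.30% lower, and 0 passed in F15, where 0.109% were called, 0.0182% higher and 0.0908% lower. In F15 2 members had an unadjusted p under 0.05, and DESeq2 also called 0. The medians were 0.94 in F3 and 0.20 in F15, against 0.02 and 0.00 for all genes.

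The other 2 members called in F3 were Or230, at 1.21 CPM in diploids and 0.13 CPM in haploids (log2 fold change 3.23 ± 0.91, adjusted p = 0.022, edgeR), and Or156, at 0.85 CPM in diploids and 0.18 CPM in haploids (2.21 ± 0.69, adjusted p = 0.035, edgeR). Or156 lay below the level of the naming rule and was picked after its values were seen. Or230 lost its call without D1A or D4. The count of 3 became 1 without D4, 5 without D15 and 7 without D14. In the difference between generations Or140 was the one member called, where 3.57% of all genes were called, 1.3% higher and 2.27% lower. Scaled to the receptors' own sum, no member was called in F3 or between generations.

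Few receptors were called between generations. In haploid male heads 4 members were higher in F15 and 0 lower, where 14.4% of all genes were called, 8.56% higher and 5.86% lower. They were Or92 (log2 fold change 1.43 ± 0.33, adjusted p = 0.0068), Or275 (2.29 ± 0.56, adjusted p = 0.011), Or19 (2.79 ± 0.76, adjusted p = 0.018) and Or93 (1.01 ± 0.32, adjusted p = 0.040, all edgeR). Or92 had 13.7, 12.6, 11.1, 11.6 and 9.45 TPM in F15 haploids, against 6.08, 4.90, 2.98, 8.05 and 4.50 TPM in F3 haploids, without overlap. LOC100121454, which overlaps Or92, had 4.14 ± 0.90 TPM in F15 haploids and 8.09 ± 3.24 TPM in F3 haploids. Its log2 fold change of -0.95 ± 0.34 was not called (adjusted p = 0.066, edgeR). The call of Or93 was lost without any 1 of 7 of the 10 libraries, D1A, D3, D5 and D101 to D104, and that of Or19 without D101, when 2 members were called.

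In diploid male heads Or93 was higher in F15 (log2 fold change 1.70 ± 0.33, adjusted p = 0.0018) while Or140 (-2.01 ± 0.36, adjusted p = 0.0011), Or98 (-1.61 ± 0.48, adjusted p = 0.027) and Or261 (-1.30 ± 0.45, adjusted p = 0.048, all edgeR) were lower, where 18.3% of all genes were called, 7.82% higher and 10.5% lower. The calls of Or98 and Or261 rested on single libraries, since both were lost without D13, D113, D114 or D115, and Or261 also without D111 or D112. LOC100679854, which overlaps Or261, was not called here (log2 fold change 0.09, adjusted p = 0.646, edgeR). The count of 4 became 2 without D113 or D115. Scaled to the receptors' own sum, 0 members were called in either male comparison of generations.

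In female heads 5 members were lower in F14 triploids than in F2 triploids and 0 higher, where 15.6% of all genes were called, 8.08% higher and 7.52% lower, and 1, Or93, was lower in F14 diploids than in F2 diploids, where 19.4% were called, 9.01% higher and 10.4% lower. Or166 was at 0 in all F14 triploid libraries, and the F2 triploids, at 0.85 CPM, were at least 22.5-fold higher. Or256, Or117, Or219 and Or72 made up the rest, with Or72 at 0.96 CPM in F14 triploids and 2.98 CPM in F2 triploids (log2 fold change -1.57 ± 0.52, adjusted p = 0.048, edgeR). Or93 had 0.53 ± 0.25 TPM in F14 diploids and 2.27 ± 0.75 TPM in F2 diploids (log2 fold change -2.62 ± 0.87, adjusted p = 0.041, edgeR), a call lost without any 1 of the 10 libraries, when 0 members were called. The median over the members was -1.93 in triploids and -0.42 in diploids, against -0.03 and 0.01 for all genes. The triploid count of 5 became 1 without D34, D35, D81 or D83B, 2 without D82B, 3 without D33 or D85 and 10 without D31, D32 or D84, and without both D31 and D32 it was 41, and the call of Or72 was lost without any 1 of D34, D35, D81, D82B, D83B, D84 and D85. Scaled to the receptors' own sum, 0 were called.

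Female heads and abdomens were compared next. The test set 15 head libraries against 14 abdomen libraries of the 3 female groups with both tissues. Of 161 members tested, 146 were higher and 2 lower in female heads than in female abdomens, where 86.7% of all genes were called, 45.9% higher and 40.8% lower, and the median log2 fold change was 4.53 against 0.18 for all genes. Only 52 members passed the filter in a fit of abdomens alone, so most of the 161 entered through the head libraries and the split describes these members only. Or1 was higher in heads by 8.50 ± 0.89 on the log2 scale (adjusted p = 2.8e-10, edgeR). Or163 and Or146 were at 0 in every female abdomen library and at least 770- and 647-fold higher in heads. The exceptions were Or135 (log2 fold change -1.79 ± 0.34, adjusted p = 1.8e-05) and Or41 (-1.54 ± 0.51, adjusted p = 0.0066, both edgeR), which were higher in abdomens.

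In males, a further set of members was higher in abdomens. The test set 20 head libraries against 20 abdomen libraries. Of 92 members tested, 47 were higher and 16 lower in male heads than in male abdomens, where 82.4% of all genes were called, 40.2% higher and 42.2% lower, and the median was 1.02 against -0.03. Or255 stood apart, with 0.04 CPM in heads and 9.98 CPM in abdomens (log2 fold change -7.40 ± 0.33, adjusted p = 3.5e-21, edgeR). The other members lower in heads included Or115, Or285, Or87, Or266, Or129, Or59, Or36, Or62, Or293, Or98, Or179, Or107, Or72, Or119 and Or106. Or115 had 0.34 CPM in heads and 2.41 CPM in abdomens (-2.65 ± 0.34, adjusted p = 1.1e-08, edgeR), and Or285 had 0.30 CPM in heads and 2.29 CPM in abdomens (-3.14 ± 0.41, adjusted p = 1.4e-08, edgeR). The call of Or119 was lost without D6 or D18. The female and male tissue comparisons rest on different groups, and the difference between them was not tested.

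In abdomens, 49 members reached a mean of at least 0.5 CPM in some group, 38 of them with their highest mean in a male group and 11 in a female group. F3 haploid males were the highest group for 14 of them. In that group D8 had 41 members at 1 TPM or more, and the other libraries had 13 to 22. The part of D8 in these counts was not tested. More male than female groups were counted, since F2 diploid female abdomens are left out. Members entered through the group where they are high, and the share over all genes was not counted. The split is therefore no support for a sex difference of the family. Or255 had 35.2, 28.2, 26.8, 18.1 and 5.14 TPM in F15 diploid males and 38.8, 27.5, 28.8, 34.7 and 27.7 TPM in F15 haploid males. It had 1.93, 1.88, 5.72, 5.16 and 2.61 TPM in F3 diploid males and 8.38, 10.5, 7.46, 4.47 and 4.97 TPM in F3 haploid males. The 14 female abdomen libraries lay between 0 and 0.18 TPM, below every male library. In heads its group means ran only from 0.07 to 0.68 TPM.

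**Figure D5:**
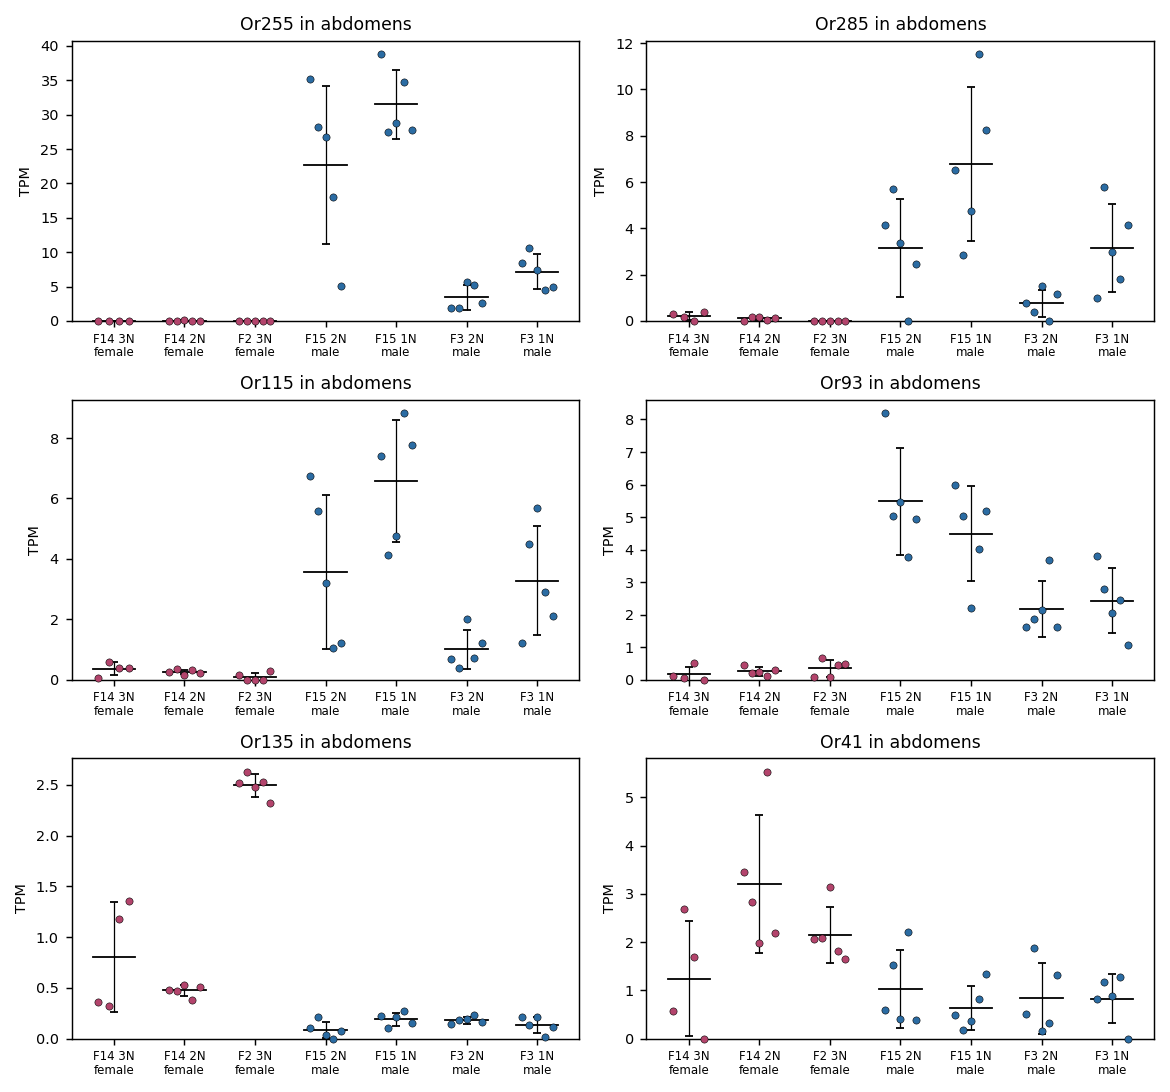
TPM of Or255, Or285, Or115, Or93, Or135 and Or41 in each abdomen library by group, with the mean and standard deviation. Or255 reaches 38.8 TPM in F15 haploid male abdomens and stays at or below 0.18 TPM in female abdomens, while Or135 is highest in F2 triploid females.

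Late diploid female and male abdomens were compared directly. Of 52 members tested in abdomens, 5 passed as higher and 26 as lower in F14 diploid females than in F15 diploid males. Of all genes 80.6% were called, 41.1% higher and 39.4% lower. The median log2 fold change was -1.60 over the members and -0.02 over all genes. Or255 had 0.03 CPM in females and 14.5 CPM in males (log2 fold change -8.58 ± 0.70, adjusted p = 6.0e-11, edgeR). Or93 had 0.45, 0.20, 0.23, 0.10 and 0.29 TPM in F14 diploid female abdomens, against 8.20, 5.04, 5.45, 3.77 and 4.94 TPM in F15 diploid male abdomens, with no overlap (-4.50 ± 0.58, adjusted p = 2.8e-08, edgeR), the same direction as in late heads. Or179 (-5.14 ± 0.78, adjusted p = 1.2e-06), Or285 (-4.81 ± 0.92, adjusted p = 3.6e-05), Or72 (-4.02 ± 0.72, adjusted p = 9.5e-06) and Or243 (-4.21 ± 1.76, adjusted p = 0.033, all edgeR) were also lower in females. Or285, with 0.07 CPM in females and 2.17 CPM in males, and Or243, with 0.05 CPM in females and 1.03 CPM in males, overlapped between the groups. The call of Or243 was lost without D96, D97, D100, D118 or D119, and under DESeq2 and limma. The 5 that were higher in females were Or133, Or17, Or135, Or296 and Or261, of which Or133 and Or17 fall outside the naming rule and were picked after their values were seen. Or133 had 0.71 CPM in females and 0 in males, at least 31.4-fold higher, and Or135 had 0.48, 0.47, 0.53, 0.38 and 0.51 TPM in females, against 0.10, 0.21, 0.03, 0 and 0.07 TPM in males (2.42 ± 0.52, adjusted p = 0.00011, edgeR). Or296, male-high in heads, was female-high here, with 1.01 CPM in females and 0.29 CPM in males (1.80 ± 0.61, adjusted p = 0.0088, edgeR). LOC100115687, which overlaps Or296, was also higher in these females (log2 fold change 0.97, adjusted p = 0.0049, edgeR). So was LOC100679854, which overlaps Or261 (1.75, adjusted p = 4.0e-11, edgeR). Neither receptor can be told apart from its overlapping gene on this point. LOC100114994, which overlaps Or179, was not called (-0.06, adjusted p = 0.728, edgeR).

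The coreceptor was low in most abdomen libraries and high in a few. It had 0.13, 0, 3.68, 2.92 and 0.09 TPM in F15 diploid male abdomens (D116 to D120), where D118 and D119 stood out. In F3 haploid male abdomens (D6 to D10) it had 0.27, 0.15, 0.02, 18.3 and 0 TPM, where D8 stood out. In F3 diploid male abdomens (D16 to D20) it had 0.12, 2.44, 0.13, 6.72 and 0.65 TPM, with D17 and D19 high. In F15 haploid male and in female abdomens no library exceeded 0.50 TPM. D8, with 18.3 TPM of Or1, had 8.39 TPM of OBP77 and 0.05 TPM of Lop1, and D119, with 2.92 TPM of Or1, had 261 TPM of Lop1. Their part in the abdomen results was not tested. The call of Or1 between late abdomens (-3.13 ± 1.36, adjusted p = 0.037, edgeR) was lost without D96, D97, D98, D118 or D119.

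Ploidy moved few receptors in abdomens. In F14 females 5 members were higher and 3 lower in triploids, where 47.4% of all genes were called, 17.8% higher and 29.6% lower, among them Or275 with 1.87 CPM in triploids and 0.25 CPM in diploids (log2 fold change 2.91 ± 0.73, adjusted p = 0.0018, edgeR). The others were Or276, Or294, Or98 and Or72, higher, and Or296, Or263 and Or133, lower. The call of Or276 was lost without D87, and that of Or296 without any 1 of D87, D89 and D96 to D99. LOC100115687, which overlaps Or296, was not called here (log2 fold change -0.27, adjusted p = 0.516, edgeR). The count of 8 became 4 without D87 and 5 without D86, D96 or D97. In F3 males 0 were higher and 2 lower in diploids, where 12.9% of all genes were called, 5.66% higher and 7.27% lower, namely Or119 (-3.59 ± 0.82, adjusted p = 0.0039) and Or115 (-1.75 ± 0.59, adjusted p = 0.046, both edgeR), and the count became 1 without D6, D7, D16, D17, D19 or D20. The call of Or115 was lost without any of these and without D8. In F15 males edgeR called 0 where 12.8% of all genes were called, 9.32% higher and 3.49% lower, with 11 members at an unadjusted p under 0.05 and 2 called by DESeq2, and the count became 5 without D117 and 2 without D116.

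Counted along the RefSeq gene order, 138 members lay in 40 arrays of 2 or more adjacent receptor genes, the largest with 18 members. The 2 arrays described next were picked after their values were seen, and others differ from them, such as that from Or241 to Or247, where Or243 had the highest mean in both tissues. In the array that runs from Or250 to Or255, Or250 had 4.44 ± 2.07 TPM and Or253 had 4.18 ± 1.13 TPM in F2 diploid female heads, while Or255 had 0.38 ± 0.38 TPM there and 31.5 ± 5.03 TPM in F15 haploid male abdomens, where Or250 had 0.01 ± 0.03 TPM. In the array from Or129 to Or134, Or129 was at 0 in F2 triploid female abdomens and had 1.79 ± 1.25 TPM in F3 haploid male abdomens, and Or133 had 1.96 ± 0.87 TPM in those females and 0 in those males.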

How the data were processed

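Expression in 74 libraries (40 of heads, 34 of abdomens) was read from a table of expected counts per gene and a table of TPM, both deposited by the authors. Per the submitters' processing notes, STAR 2.7.11a and RSEM 1.3.1 were used; for the genome build the sources used here give nothing. Expected counts deposited by the authors were rounded to whole numbers. The TPM values deposited by the authors were used for levels between genes, and CPM scaled by TMM factors for levels within a gene. Genes were kept by filterByExpr (at least 10 counts in a group's number of libraries and 15 in all) and tested with edgeR 4.0.16 (R 4.3.3), robust quasi-likelihood F test, with Benjamini-Hochberg adjustment over all genes and calls at 0.05. Separate fits covered all heads, female heads, male heads, abdomens, and heads with abdomens of each sex. The SE is the log2 fold change divided by the square root of F. Alternatives were DESeq2 1.42.0, limma 3.58.1 on log2(TPM + 0.1) and log2(TPM + 1), relative log expression factors, no filter, library sizes from the receptors' summed counts, 2-group fits and leaving out libraries. The female head fit was tested on simulated data with the same dispersion for every gene. That setting was not matched to the wide spread of the receptors, so it gives no error rate for them. Members named with values were the coreceptor, the 10 of highest mean TPM in heads, up to 6 of largest fold change each way in a comparison among those called with at least 1 CPM in the higher group, those called one way in all 4 sex comparisons in heads and up to 8 of highest mean in abdomens; others are marked or follow as counts. The members and lists were chosen with earlier results of these data known. Medians with genes at 0 set to their bounds did not differ from the fitted ones in the head and tissue comparisons. Odorant-binding proteins were the 3 genes so named by symbol. The wom gene is not analysed here.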

Additional observations from a re-analysis of the deposited data

Results flagged for a closer look

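Library values were compared within each group of 4 to 10 libraries for the summed receptors, for Or1 and for the other genes followed by library, and a library was picked out when it stood apart from the rest of its group by Dixon's 95% criterion. Of 191 sets tested, 23 had such a library in 12 genes or sums. Chance gives about 1 in 20 for independent, normally distributed values, which these TPM values were not shown to be. A set with 1 nonzero library passes by its form, and Or1 is part of the sum. No excess over chance can therefore be read from these counts. The summed TPM was 157 in D8, an F3 haploid male abdomen, where the next was 77.6, and 287 in D11, an F3 diploid male head, where the next was 128. Or1 had 18.3 TPM in D8 against 0.27 in the next, 59.0 in D11 against 15.8, and 0.50 in D109, an F15 haploid male abdomen, against 0.19.

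In heads, Or296 had 24.9 TPM in D4 of the F3 haploid males (next 12.4). Or275 had 24.5 TPM (next 12.1) in D95 and Or285 had 3.85 TPM (next 1.19) in D91, both F14 diploid females. Or255 had 3.14 TPM in D81 (next 0.25), Or285 had 0.46 TPM in D84 (next 0), Or36 had 4.03 TPM in D84 (next 1.91) and Or135 had 0.83 TPM in D81 (next 0.30), all F14 triploid females. Or135 had 0.84 TPM in D92 (next 0.38), an F14 diploid female. Or36 was lowest, at 0, in D104 of the F15 haploid males (next 1.41) and highest, at 2.97 TPM, in D13 of the F3 diploid males (next 0.99). Or261 had 5.86 TPM in D33 of the F2 triploid females (next 2.74) and 3.14 TPM in D13 (next 1.89).

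In abdomens, Or93 had 3.67 TPM in D19 of the F3 diploid males (next 2.14) and Or255 had 0.18 TPM in D97 of the F14 diploid females (next 0.05). Among the F2 triploid females Or92 had 0.10 TPM in D36 (next 0), Or140 had 0.67 TPM in D37 (next 0), Or275 had 0.25 TPM in D37 (next 0), and Or261 was lowest at 2.83 TPM in D36 (next 3.86).

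Differences of log2 fold changes between groups were themselves tested by edgeR and called for the sex difference between periods in Or140, at 3.26, in Or93, at -4.33, and in Or61, at -4.40. They were called for the ploidy difference between generations in Or166 of female heads, at a fitted -5.97 that depends on the prior count because every F14 triploid library was at 0, and in Or140 of male heads, at -2.37.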

How the results depend on the processing

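Counts of members called moved by over 1.5 times under these alternatives. With library sizes set to the receptors' own sum, the late sex comparisons gave 0 against diploid and 1 against haploid males and the early one gave 24 against haploid males. That scaling gave 4 in F2 triploids and 0 in F14 triploids, in the female and male ploidy by generation differences, in F3 male heads and in the 4 generation comparisons. With limma on log2(TPM + 0.1), the counts were 4 and 46 for late and early diploid males, 2 in F2 and 23 in F14 triploids, 2 in their difference, 2 and 2 for diploid and triploid female generations, and 4 and 3 for F3 and F15 male abdomens. With log2(TPM + 1) they were 60 for early diploid males, 5 for sex by period, 4 in F2 and 20 in F14 triploids, 2 in their difference, 5 and 1 for diploid and triploid female generations, and 6 and 4 for F3 and F15 male abdomens. DESeq2 gave 14 in F14 triploids, 2 in the female difference, 7 in F3 male heads, 3, 12 and 7 for diploid female, triploid female and haploid male generations, and 2 in F15 male abdomens. Without the filter the counts were 5 for sex by period, 0 for diploid female generations, 49.5% of the 214 members for male tissues (29.4% with the filter), 69 for late abdomens of both sexes, and 1 each for F3 and F15 male abdomens. Fits of only the 2 groups gave 2 in F14 triploids, 5 and 0 for diploid and triploid female generations, 2 for diploid male generations and 4 for F14 female abdomens. Without D31 and D32 the counts were 2 in F2 triploids, 10 in the female difference and 41 for triploid female generations. The cause was not tested.

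Leaving out 1 library at a time gave 2 to 8 calls late and 18 to 34 early against diploid males, 3 to 11 late and 35 to 60 early against haploid males, and 3 to 4 for sex by period. It gave 0 to 1 in F2 and 3 to 13 in F14 triploids, 0 to 5 in their difference, 1 to 7 in F3, 0 to 0 in F15 and 1 to 1 in the difference of male heads. Generations gave 0 to 0 in diploid and 1 to 10 in triploid females, and 2 to 5 in both male ploidies. Tissues gave 64.0 to 72.4% of the 214 members in females and 26.6 to 32.7% in males. Abdomens gave 28 to 33 between sexes, 4 to 9 in F14 females, 1 to 3 in F3 and 0 to 5 in F15 males. Or1 in F3 male abdomens changed sign, to 4.49 (adjusted p = 0.0241, edgeR) without D8, where it was -0.87 with all libraries and as low as -2.22 without D19. No paired analysis was possible because the replicate labels are library names that groups do not share. Many members have few counts and a wide spread between libraries, and which of these limits the calls was not tested.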
